A study of Mus musculus with 6 samples.

Results

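Naive CD8 T cells circulate between blood and lymphoid organs by reading chemokines and the lipid sphingosine-1-phosphate through receptors that couple to inhibitory G proteins. The 8 genes described here are the chemokine receptor genes Ccr7, Ccr9 and Cxcr4, the sphingosine-1-phosphate receptor genes S1pr1 and S1pr4, and the signalling genes Gnai2, Arhgef1 and Rgs1. They were chosen by symbol and make up 8 of the 14515 genes in the count table, and all 8 passed the filter on low counts. RNA was taken from naive CD8 T cells of the spleens of 3 wild type (Lair1+/+) and 3 LAIR-1-deficient (Lair1-/-) mice, with 100000 cells sorted per mouse by surface proteins that included CD45, CD3 and CD8 and by absence of CD44, and with 1 library per mouse. LAIR-1 is a collagen-binding receptor that dampens the activity of immune cells. No group received a treatment, and the mice's age, sex and strain background and the design of the Lair1 allele were not stated in the labels. The comparison asks whether resting naive CD8 T cells without LAIR-1 carry different amounts of these RNAs.

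As background, CCR7 binds the chemokines CCL19 and CCL21 and brings naive T cells into lymph nodes and the T cell zones of the spleen. CCR9 binds CCL25, which is made in thymus and small intestine, and CXCR4 binds CXCL12, which is made in bone marrow and other stroma. S1PR1 draws T cells out of lymphoid organs towards the sphingosine-1-phosphate of blood and lymph, and S1PR4 is a related receptor found mostly on blood cells. These receptors signal largely through the inhibitory alpha subunit encoded by Gnai2. RGS1 speeds up the shut-off of that subunit, and ARHGEF1 (Lsc) is a guanine nucleotide exchange factor that acts downstream of a different alpha subunit, Gα13.

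Promoter sequence was available from RefSeq (GRCm38.p6) for 4 of the 8 genes, as 250 bases before to 50 bases after the annotated start. All 4 are shown, Cxcr4, Ccr9, Arhgef1 and S1pr4. For Arhgef1, which has more than 1 start in the table, the upstream start is shown. Capitals mark CACCC, the core letters of the motif bound by Krüppel-like factors, on either strand (GGGTG where it lies on the opposite strand).
Cxcr4 (chr1:128592250-128592549, minus strand): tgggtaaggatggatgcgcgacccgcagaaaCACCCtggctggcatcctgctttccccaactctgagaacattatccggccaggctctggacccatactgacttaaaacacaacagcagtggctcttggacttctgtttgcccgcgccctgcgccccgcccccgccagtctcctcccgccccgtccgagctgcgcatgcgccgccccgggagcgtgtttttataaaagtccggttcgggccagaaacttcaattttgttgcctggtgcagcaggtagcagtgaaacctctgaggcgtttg
Ccr9 (chr9:123766961-123767260, plus strand): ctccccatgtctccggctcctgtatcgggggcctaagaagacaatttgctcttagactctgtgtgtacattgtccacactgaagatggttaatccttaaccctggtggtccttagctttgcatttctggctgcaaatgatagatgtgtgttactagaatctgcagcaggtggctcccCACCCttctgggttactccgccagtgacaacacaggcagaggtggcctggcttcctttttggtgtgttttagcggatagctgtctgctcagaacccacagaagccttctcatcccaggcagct
Arhgef1 (chr7:24902736-24903035, plus strand): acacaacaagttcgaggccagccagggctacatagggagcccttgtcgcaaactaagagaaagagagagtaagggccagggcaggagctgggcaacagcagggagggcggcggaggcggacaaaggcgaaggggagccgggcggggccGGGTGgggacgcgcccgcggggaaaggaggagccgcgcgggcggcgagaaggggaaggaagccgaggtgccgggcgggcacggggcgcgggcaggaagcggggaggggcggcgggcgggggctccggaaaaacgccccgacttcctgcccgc
S1pr4 (chr10:81500088-81500387, minus strand): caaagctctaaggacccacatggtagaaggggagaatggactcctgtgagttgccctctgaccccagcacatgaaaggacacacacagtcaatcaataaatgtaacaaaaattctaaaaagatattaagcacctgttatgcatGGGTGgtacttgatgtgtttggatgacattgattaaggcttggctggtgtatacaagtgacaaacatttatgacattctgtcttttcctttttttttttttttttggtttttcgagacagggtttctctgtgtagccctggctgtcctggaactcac
CACCC was found once in each of these 4 windows, on the strand shown for Cxcr4 and Ccr9 and on the opposite strand for Arhgef1 and S1pr4. It was also found in 57.5% of all 32851 promoter windows of the same length, so its presence does not set these genes apart. TGANTCA (AP-1, in 7.81% of all windows), TGACGTCA (the cyclic AMP response element, 1.79%), GTAAACA (FOXO, 3.65%) and the NF-kappaB motif (0.411%) were searched on both strands and had no match in the 4 windows. GGAAGT (ETS, 23.8%) had 1 match, in Arhgef1. None of these motifs' matches overlapped. The window at the other Arhgef1 start, which is not shown, was searched too. It had no match to any of these motifs, including those of Krüppel-like factors and ETS. The matches in Arhgef1 therefore belong to its upstream start only.

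The libraries held between 5519748 and 9187017 counts over genes, and each LAIR-1-deficient library was shallower than each wild type library. Levels are given as CPM, counts scaled to library size, with edgeR's TMM factors. Lair1, the deleted gene, was counted 58, 32 and 43 times in the wild type libraries but only 2, 1 and 1 times in the LAIR-1-deficient ones. Markers of T cells (Cd8b1 at 1516 ± 55.8 CPM in wild type against 1478 ± 28.9 CPM in LAIR-1-deficient libraries, SD, n = 3) were abundant. Summed markers of B cells (7 of 8 analysed) were at 33.6 to 40.5 CPM in wild type against 31.5 to 38.8 CPM in LAIR-1-deficient libraries, those of macrophages and monocytes (8 of 8) at 7.82 to 15.2 and 9.96 to 15.0 CPM, and those of immature thymocytes (3 of 4) at 4.82 to 7.18 and 4.76 to 6.56 CPM. Ncr1, which defines NK cells, was at 0 in all wild type libraries and at most 0.137 CPM in LAIR-1-deficient ones. Tyrobp, another gene of the NK list, was at 0.711 to 1.97 CPM over the 6 libraries. The summed levels of 2 lists were lower in each LAIR-1-deficient library than in each wild type library. Dendritic cell markers (5 of 6) summed to 17.2 to 23.0 CPM in wild type against 12.9 to 16.2 CPM in LAIR-1-deficient libraries. Nearly all of it was Bst2 (log2 fold change -0.39, unadjusted p 0.0331 and adjusted p 0.9999 in edgeR's test). The 4 other dendritic cell markers had means of at most 0.257 CPM, so the gap in the sum is that of 1 gene, Bst2. Whether Bst2 RNA came from dendritic cells was not tested. Platelet markers (4 of 4) summed to 3.03 to 5.93 against 1.07 to 2.73 CPM. These rest on few reads, at most 65 counts per gene over the 6 libraries (Ppbp), and 0 of the 4 were tested. The other lists of markers of other cell types overlapped between genotypes. CD4 and regulatory T cell markers (5 of 5) were at 3.50 to 6.84 against 5.51 to 9.95 CPM, and neutrophil markers (2 of 5) at 0.224 to 4.05 against 0.137 to 4.47 CPM. Memory and effector T cell markers (8 of 8) were at 361 to 404 against 354 to 369 CPM, and the NK list (4 of 5), nearly all of it Klrd1, which CD8 T cells also express, at 338 to 391 against 315 to 395 CPM. The erythroid list (3 of 6, nearly all of it the beta globin row Beta-s) was at 34.3 to 168 against 26.9 to 141 CPM. The part of these cells in the results was not tested. In bulk samples, fewer cells of a type and less RNA per cell cannot be told apart.

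The libraries of mouse 1 in both genotypes stood apart from the others. The summed level of 30 immediate early genes, which T cells switch on within minutes of stimulation, was 16284 CPM in wild type mouse 1, and 19652 CPM in LAIR-1-deficient mouse 1. It was 7518 and 8239 CPM in wild type mice 2 and 3 and 7176 and 7520 CPM in LAIR-1-deficient mice 2 and 3. Of the 25 tested, 22 had both mouse 1 libraries above each of the 4 others, which held for 11.9% of all 9565 genes tested. The labels do not say that a mouse number marks a shared day or batch. Results below are given with all libraries, and for a number of genes also without mouse 1 of both genotypes.

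Across genotypes, none of the 8 genes was called different. With edgeR's quasi-likelihood test over 9565 genes, 0 of the 8 had an adjusted p under 0.05 or an unadjusted p under 0.05. Over all genes tested, 0.0105% had an adjusted p under 0.05 (1 gene, Lair1) and 3.25% an unadjusted p under 0.05. The 8 genes had 5 positive and 3 negative log2 fold changes (LAIR-1-deficient over wild type), with a median of 0.01, where the median of all genes tested was 0.0006. Every one of the 8 had an adjusted p of 0.9999. DESeq2 and limma-voom likewise called 0 of the 8, and gave 0 of the 8 at an unadjusted p under 0.05.

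**Figure D1:**
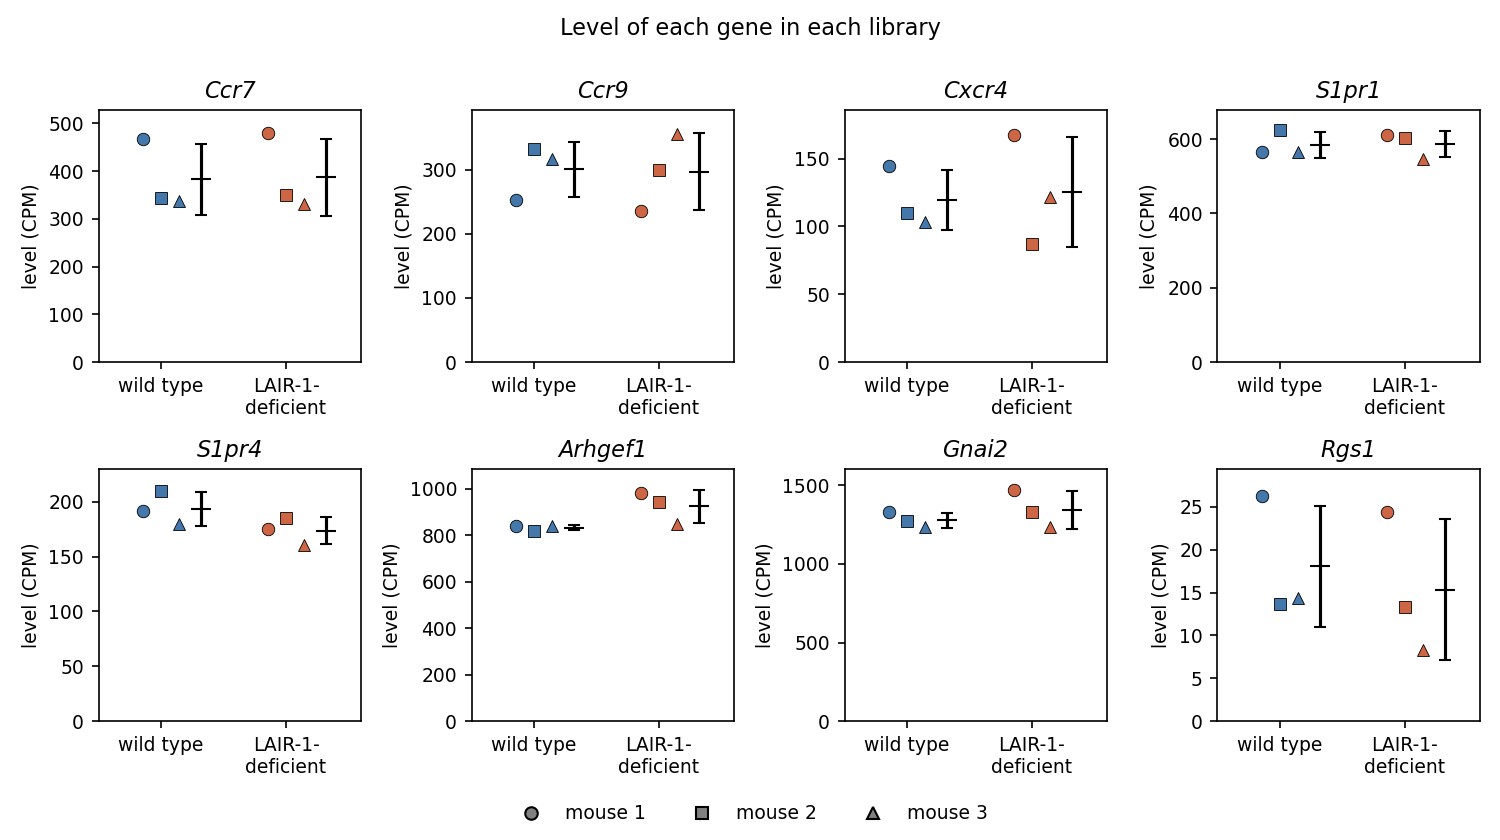
Level of each of the 8 genes (vertical axes, CPM, from 0) in the 3 wild type (blue) and 3 LAIR-1-deficient (orange) libraries. Symbols give the mouse number, and the bar beside each group is the mean ± SD over 3 libraries. Mouse 1 of both genotypes is the highest library of its group for Ccr7, Cxcr4, Gnai2, Arhgef1 and Rgs1 and the lowest for Ccr9.

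Ccr7, the lymph node homing receptor, was at 468, 344 and 337 CPM in wild type mice 1 to 3 and at 480, 350 and 332 CPM in LAIR-1-deficient mice 1 to 3. The groups overlapped almost fully, and mouse 1 was high in each. Group means were 383 ± 73.9 and 387 ± 80.5 CPM (SD, n = 3), a fold of 1.01 with a 95% interval of 0.778 to 1.32. On the log2 scale this was 0.02 (SE 0.17). Without mouse 1 of both genotypes it was -0.0001. Counts of Ccr7 were 1969 to 3710 per library, so counting error was at most 2.25% of a value and far below the spread between mice. Ccr7 is annotated on chromosome 11, 99144196 to 99155077, minus strand (GRCm38), with 1 annotated transcript of 3 exons.

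Ccr9, the receptor for the thymic and intestinal chemokine CCL25, was at 252, 332 and 317 CPM in wild type mice 1 to 3 and at 235, 299 and 356 CPM in LAIR-1-deficient mice 1 to 3. Mouse 1 was the lowest library in each genotype, and the groups overlapped. The fold was 0.988 (95% interval 0.793 to 1.23), or -0.02 on the log2 scale (SE 0.15). The summed thymocyte markers were 5.42 CPM in wild type mouse 1 and 4.76 CPM in LAIR-1-deficient mouse 1, against 4.82 to 7.18 CPM in the 4 others, and their part in the order was not tested. The Ccr9 gene spans chromosome 9 from 123678439 to 123784330 on the plus strand and overlaps Lztfl1 on the minus strand. This overlap is of whole gene spans, and whether exons of Ccr9 and Lztfl1 overlap was not examined. The strand setting of the counting is not given, so how reads in any shared exon were assigned is not known.

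Cxcr4, the receptor for CXCL12, was the most variable of the 5 receptor genes. Its level was 145, 110 and 104 CPM in wild type mice 1 to 3 and 168, 87.0 and 122 CPM in LAIR-1-deficient mice 1 to 3. Mouse 1 was again highest in each genotype, and the highest library was 1.93 times the lowest. Means were 119 ± 22.2 and 126 ± 40.5 CPM (SD, n = 3), and the fold of 1.05 had a 95% interval of 0.675 to 1.65. The log2 fold change was 0.08 with all libraries and -0.03 without mouse 1 of both genotypes. Cxcr4 is annotated on chromosome 1, 128588199 to 128592293, minus strand.

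S1pr1, the egress receptor, was the steadiest receptor gene. It was at 564, 623 and 564 CPM in wild type mice 1 to 3 and at 610, 604 and 545 CPM in LAIR-1-deficient mice 1 to 3, and the groups overlapped. The highest library was 1.14 times the lowest, and mouse 1 did not stand out in either genotype. The fold was 1.004 with a 95% interval of 0.882 to 1.14. The log2 fold change was 0.0058 with all libraries and -0.05 without mouse 1 of both genotypes. S1pr1 is annotated on chromosome 3, 115710433 to 115715072, minus strand.

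S1pr4, the second sphingosine-1-phosphate receptor gene, was at 192, 210 and 179 CPM in wild type mice 1 to 3 and at 175, 185 and 161 CPM in LAIR-1-deficient mice 1 to 3. The wild type values sat higher, but LAIR-1-deficient mouse 2 was above wild type mouse 3, so the groups overlapped. Means were 194 ± 15.4 and 174 ± 12.3 CPM (SD, n = 3), a fold of 0.897 with a 95% interval of 0.777 to 1.04. The log2 fold change of -0.16 had an SE of 0.10 and an unadjusted p of 0.129 in edgeR's test. It stayed negative in each of the 6 fits that left out 1 library, between -0.21 and -0.09. S1pr4 is annotated on chromosome 10, 81497747 to 81500132, minus strand, and has 1 exon.

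The ratio of S1pr1 to S1pr4 counts within a library does not depend on scaling between libraries. It was 2.95, 2.97 and 3.15 in wild type mice 1 to 3, against 3.48, 3.26 and 3.40 in LAIR-1-deficient mice 1 to 3. The groups did not overlap. This ratio is 1 of 4 computed and was looked at with the values of both genes known, so it is given as a description with no test. The ratio of Ccr7 to Ccr9 counts was 1.86, 1.03 and 1.06 in wild type, against 2.04, 1.17 and 0.933 in LAIR-1-deficient mice 1 to 3, high in mouse 1 of each genotype. The ratio of Cxcr4 to S1pr1 counts was 0.256, 0.176 and 0.184 in wild type, against 0.275, 0.144 and 0.224 in LAIR-1-deficient mice 1 to 3. The ratio of Rgs1 to Gnai2, in Rgs1 counts per 1000 Gnai2 counts, was 19.8, 10.8 and 11.7 in wild type, against 16.6, 10.05 and 6.77 in LAIR-1-deficient mice 1 to 3. These 3 ratios overlapped between genotypes.

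Gnai2, the inhibitory G protein subunit that these receptors share, was at 1328, 1271 and 1232 CPM in wild type mice 1 to 3 and at 1470, 1327 and 1232 CPM in LAIR-1-deficient mice 1 to 3. LAIR-1-deficient mouse 1 was the highest library, and the other 5 lay close together. The fold was 1.05 (95% interval 0.925 to 1.20), with a log2 fold change of 0.07 and an SE of 0.09, and 0.03 without mouse 1 of both genotypes. Both mouse 1 libraries were above the 4 others, but wild type mouse 1 was above LAIR-1-deficient mouse 2 by less than 1 CPM. Gnai2 is annotated on chromosome 9, 107614125 to 107635367, minus strand.

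Arhgef1, the exchange factor gene, was the 1 gene of the 8 whose groups did not overlap, and 8.38% of all genes tested did not overlap. Wild type mice 1 to 3 were at 841, 820 and 839 CPM, and LAIR-1-deficient mice 1 to 3 were at 983, 944 and 847 CPM. The lowest LAIR-1-deficient library, mouse 3, was only just above the highest wild type library. Means were 833 ± 11.6 and 925 ± 70.0 CPM (SD, n = 3), a fold of 1.11 with a 95% interval of 0.978 to 1.26. The log2 fold change was 0.15, its SE 0.09 and its unadjusted p 0.100 in edgeR's test. Without LAIR-1-deficient mouse 3 it was 0.21 with an unadjusted p of 0.0470 and an adjusted p of 0.9993 (edgeR). Without LAIR-1-deficient mouse 1 it was 0.10. Arhgef1 is annotated on chromosome 7, 24902912 to 24926594, plus strand, and has 19 annotated transcripts.

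Rgs1, the brake on the inhibitory alpha subunits, was the scarcest and most variable of the 8. It was at 26.2, 13.7 and 14.4 CPM in wild type mice 1 to 3 and at 24.4, 13.3 and 8.34 CPM in LAIR-1-deficient mice 1 to 3, from 61 to 208 counts. Mouse 1 was the highest in each genotype, at 1.87 times the mean of mice 2 and 3 in wild type and 2.25 times in LAIR-1-deficient cells. Counting error was 6.93 to 12.8% of a value, smaller than these gaps. The fold between genotypes was 0.853 with a 95% interval of 0.372 to 1.96, the widest of the 8. The log2 fold change of -0.23 had an SE of 0.48. Without LAIR-1-deficient mouse 1 it was -0.76 with an unadjusted p of 0.0435 and an adjusted p of 0.9841 (edgeR), and without wild type mouse 1 it was 0.13. Without mouse 1 of both genotypes it was -0.40. Rgs1 is annotated on chromosome 1, 144242296 to 144249242, minus strand.

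**Figure D2:**
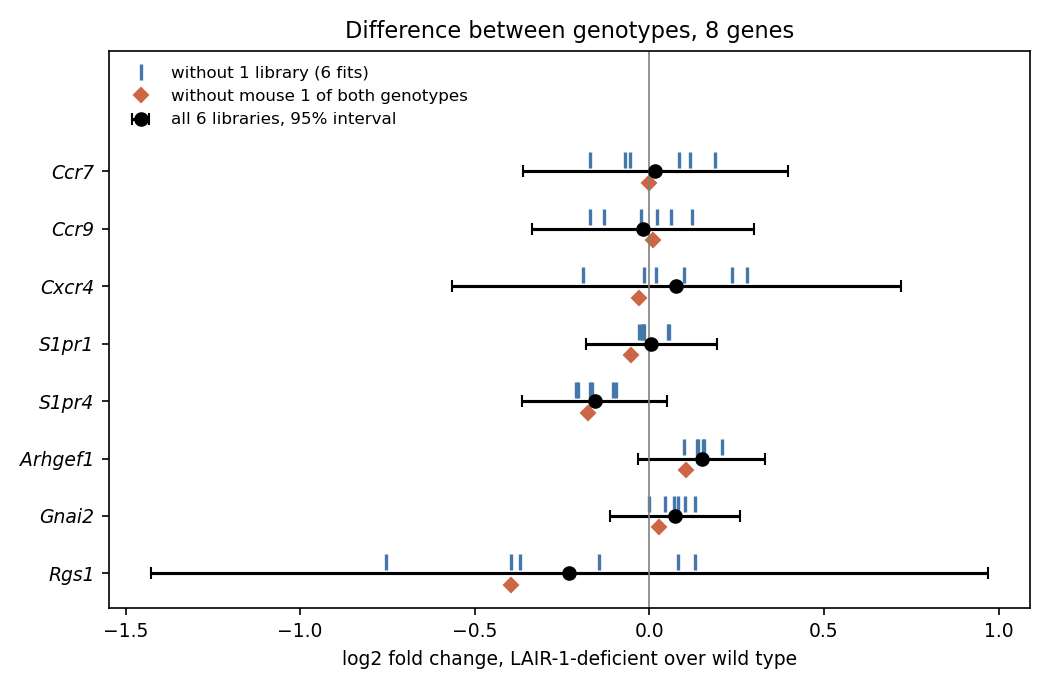
Log2 fold change of each of the 8 genes, LAIR-1-deficient over wild type (horizontal axis). Black points and bars are the edgeR estimate and 95% interval with all 6 libraries, blue ticks the 6 fits without 1 library, and orange diamonds the fit without mouse 1 of both genotypes. All 8 intervals include 0, and the ticks stay on 1 side of 0 for S1pr4 (-0.21 to -0.09) and Arhgef1 (0.10 to 0.21).

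For 6 of the 8 genes the sign of the estimate depended on single libraries. With LAIR-1-deficient mouse 1 left out, the log2 fold changes were -0.17 for Ccr7, 0.12 for Ccr9, -0.19 for Cxcr4, -0.03 for S1pr1 and -0.0014 for Gnai2. Without wild type mouse 3 they were -0.07 for Ccr7, 0.02 for Ccr9, -0.02 for Cxcr4 and -0.02 for S1pr1. Without wild type mouse 2 they were -0.05 for Ccr7 and 0.06 for Ccr9. For S1pr1 the estimate was -0.02 in the fit lacking wild type mouse 1 and also -0.02 in that lacking LAIR-1-deficient mouse 2, and for Rgs1 it was 0.08 without LAIR-1-deficient mouse 3. None of the 8 had an adjusted p under 0.05 in any of these fits.

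Between mice, 4 of the 8 genes (Ccr7, Cxcr4, Gnai2 and Rgs1) were above each of the 4 other libraries in both mouse 1 libraries, and 1 (Ccr9) was lower in both. Of all genes tested, 11.9% were higher and 12.1% lower in this way. Relative to the mean of mice 2 and 3, mouse 1 was at 1.38 times (wild type) and 1.41 times (LAIR-1-deficient) for Ccr7. The same ratios were 1.36 and 1.61 for Cxcr4, and 0.777 and 0.719 for Ccr9. They lay between 0.950 and 1.15 for S1pr1, S1pr4, Arhgef1 and Gnai2. Mouse 1 is the library with the high immediate early genes in each genotype, and the part of those genes in these differences was not tested.

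**Figure D3:**
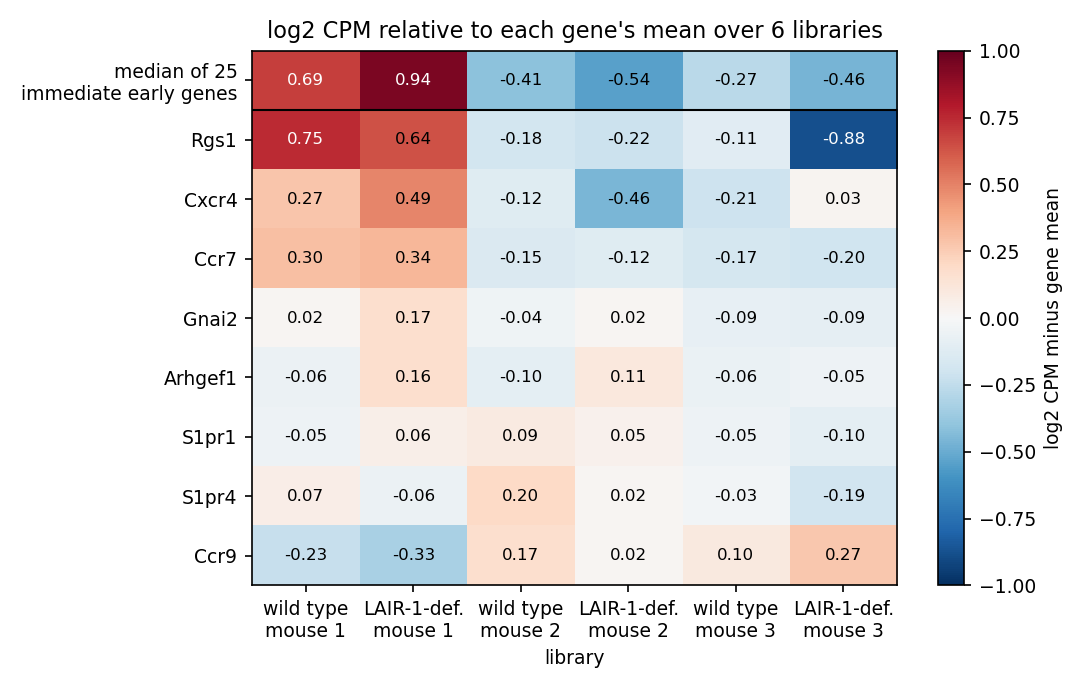
Log2 CPM in each library minus the gene's mean over the 6 libraries (colour and printed value), for the median of 25 tested immediate early genes and for the 8 genes. Columns are libraries, ordered by mouse number. Mouse 1 of both genotypes is high for the immediate early median (0.69 and 0.94) and for Rgs1 (0.75 and 0.64), and low for Ccr9 (-0.23 and -0.33).

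The genes whose values over the 6 libraries were most like each of the 8 were found among 6619 other tested genes at 10 CPM or more, by the root mean square difference of centred log2 CPM. Rgs1 was most like Ier2 (a difference of 0.140) and Btg2 (0.171), both immediate early genes, where the median over all genes compared was 0.570. Ier2 was at 447, 264 and 271 CPM in wild type mice 1 to 3 and at 555, 243 and 181 CPM in LAIR-1-deficient mice 1 to 3. Cxcr4 was most like Dnajb1, a heat shock cochaperone (0.0578), and Tsc22d3, a glucocorticoid-induced gene known as GILZ (0.0704), with a median of 0.339. Ccr7 was most like Wdr45b (0.0474) and the translation factor Eif1 (0.0491). Ccr9 was most like Top1, a DNA topoisomerase (0.0266), and Cep57 (0.0297). For the steadier genes, the nearest were Mcrs1 for S1pr1 (0.00504), Surf6 for S1pr4 (0.0383), Cct5 for Arhgef1 (0.0244) and Sh3bgrl3 for Gnai2 (0.01996). The second nearest were Hars (0.0254), Trim25 (0.0402), Zap70 (0.0277) and Btbd11 (0.0202) in the same order. With 6 libraries and 6619 genes to choose from, these are descriptions only.

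Levels of the 8 genes were also ordered per kilobase of the principal annotated transcript (GENCODE vM21). Which part of a transcript the reads cover is not given, so this order holds only if reads scale with length. Gnai2 was highest at 591 ± 40.4 CPM per kb (SD over 6 libraries), followed by Arhgef1 at 260 ± 19.9. Ccr7 at 195 ± 35.0 and S1pr1 at 192 ± 10.2 CPM per kb had overlapping ranges. S1pr4 (77.0 ± 6.95), Cxcr4 (67.8 ± 16.3) and Ccr9 (57.5 ± 8.98) formed a lower set in which each range overlapped the next. Rgs1 was lowest at 4.35 ± 1.82 CPM per kb, with all libraries below those of Ccr9.

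**Figure D4:**
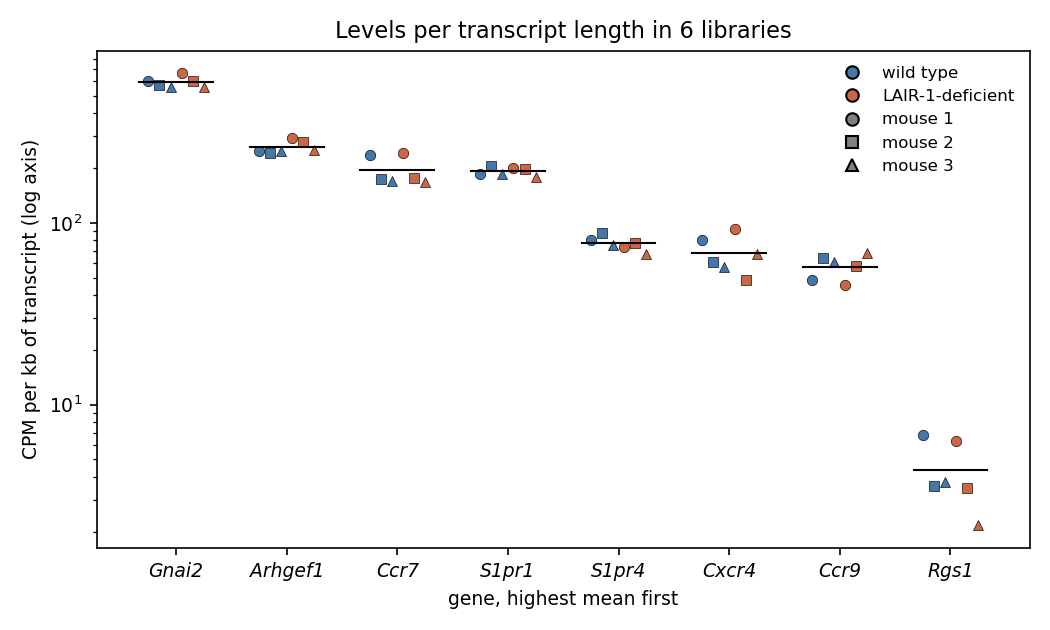
Level per kilobase of principal transcript (vertical axis, CPM per kb, log axis) of the 8 genes in each of the 6 libraries, with the mean as a line, ordered by mean. Gnai2 lies above all others (mean 591) and Rgs1 below all others (mean 4.35), while Ccr7 and S1pr1 overlap.

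The rest of the pathway, in 9 lists of 125 genes by role, held 77 tested genes, of which 0 were called higher and 0 lower. An unadjusted p under 0.05 was reached by 3 of them (3.90%), and groups did not overlap for 5 (6.49%), against 3.25% and 8.38% over all genes tested. With DESeq2, 0 of the 77 had an unadjusted p under 0.05, against 211 of 14515 genes in that fit. With mouse number as a block 6 of the 77 did, against 448 of 9565 genes (edgeR). The 77 genes had 38 positive and 39 negative log2 fold changes with a median of -0.0003. In both mouse 1 libraries 19 of the 77 (24.7%) were higher than in all 4 others and 9 (11.7%) were lower. Over all genes tested these shares were 11.9% and 12.1%. Without mouse 1 of both genotypes 0 were called, and 4 of the 76 then in the fit (Ccl4, Rgs10, Rgs3 and Cxcr6) had an unadjusted p under 0.05 in edgeR's test, as did 4.53% of all genes in that fit.

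Among other chemokine receptors, 14 of 20 were analysed and 5 tested, with 0 called, and 9 of the 14 had a mean under 1 CPM. Cxcr6, the receptor for CXCL16, was at 41.5 ± 5.90 CPM in wild type against 48.6 ± 13.7 CPM in LAIR-1-deficient cells (mean ± SD over 3 libraries, as for the other pathway genes). Without mouse 1 of both genotypes its log2 fold change was 0.33 (unadjusted p 0.0215 and adjusted p 0.9953, edgeR). Cxcr3, which effector and memory T cells carry, was at 9.54 ± 1.84 and 8.96 ± 1.15 CPM, and Cxcr2 at 2.57 ± 1.44 and 3.15 ± 0.476 CPM. Of the chemokines, 5 of 8 analysed were tested and 0 called, with a list median of -0.31. Ccl25, the ligand of CCR9, was barely detected, at 3.03, 2.30 and 1.68 CPM in wild type mice 1 to 3 and 1.15, 0.889 and 0.957 CPM in LAIR-1-deficient mice 1 to 3. The groups did not overlap, and its log2 fold change of -1.20 had a 95% interval of -2.22 to -0.18. In edgeR's test its unadjusted p was 0.0238 and its adjusted p 0.9999. The unadjusted p was 0.0356 with limma-voom, 0.0597 with DESeq2 and 0.111 without mouse 1 of both genotypes (edgeR). Ccl5 was at 15.9 ± 4.62 and 12.8 ± 1.73 CPM, and Ccl4 at 7.29 ± 2.11 and 6.90 ± 6.65 CPM, with LAIR-1-deficient mouse 1 at 14.6 CPM. With mouse 1 of both genotypes left out, Ccl4 had a log2 fold change of -1.06 (unadjusted p 0.0107 and adjusted p 0.916, edgeR).

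Among other receptors for lipids and positioning cues, 8 of 11 analysed genes were tested and 0 called. Gpr183, the oxysterol receptor that guides cells within lymphoid tissue, was at 103, 53.7 and 44.4 CPM in wild type mice 1 to 3 and at 110, 44.8 and 45.7 CPM in LAIR-1-deficient mice 1 to 3. It was high in mouse 1 of each genotype, and its log2 fold change was -0.0003 (SE 0.57). Gpr18 was at 105 ± 7.27 and 110 ± 2.88 CPM, P2ry10 at 26.2 ± 1.93 and 23.8 ± 3.70 CPM, and S1pr2, a receptor that holds cells in place, at 1.70 ± 0.0633 and 3.04 ± 2.51 CPM. S1pr2 was at 5.87 CPM in LAIR-1-deficient mouse 2 and at most 2.16 CPM elsewhere. Of the genes that make, break down or export sphingosine-1-phosphate, 3 of 7 analysed were tested and 0 called. The kinase Sphk2 was at 43.5 ± 5.98 and 39.9 ± 3.68 CPM, the phosphatase Sgpp1 at 35.0 ± 2.63 and 32.6 ± 4.71 CPM, and the lyase Sgpl1 at 22.0 ± 2.26 and 25.7 ± 5.83 CPM.

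Of other G protein subunits, 15 of 19 analysed were tested and 0 called, with 9 positive and 6 negative fold changes and a median of 0.02. Gnas, the stimulatory alpha subunit, was at 1041 ± 27.4 and 1037 ± 78.2 CPM, and Gna13, the subunit that ARHGEF1 reads, at 175 ± 3.42 and 177 ± 19.7 CPM. Gnaq, at 2.01 ± 0.800 and 3.78 ± 1.35 CPM, had groups that did not overlap, a log2 fold change of 0.92 (95% interval 0.06 to 1.79) and an unadjusted p of 0.0368 (edgeR, adjusted p 0.9999). Gnb5 was at 3.11 ± 1.31 and 1.65 ± 0.225 CPM. Of other RGS genes, 6 of 10 analysed were tested and 0 called, with 2 positive and 4 negative fold changes. Rgs10 was at 135 ± 9.66 and 116 ± 15.7 CPM, and its log2 fold change was -0.22 (95% interval -0.46 to 0.01), Rgs3 at 44.5 ± 6.10 and 36.1 ± 6.48 CPM with -0.31 (-0.62 to 0.0029), and Rgs19 at 60.9 ± 0.713 and 58.6 ± 4.27 CPM. The groups of Rgs10, Rgs3 and Rgs19 overlapped. For Rgs10 the log2 fold change was -0.37 (unadjusted p 0.00489 and adjusted p 0.916, edgeR) without mouse 1 of both genotypes and -0.32 (0.0123 and 0.926) without LAIR-1-deficient mouse 1. With mouse number as a block it was -0.23, with an unadjusted p of 0.0416 and an adjusted p of 0.9994 (edgeR). For Rgs3 it was -0.44 without mouse 1 of both genotypes (unadjusted p 0.0131 and adjusted p 0.916, edgeR). Over the 6 fits without 1 library, the log2 fold change ran from -0.32 to -0.12 for Rgs10 and from -0.43 to -0.18 for Rgs3.

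Receptor kinases and arrestins, which switch off and internalise these receptors, had 5 of 6 genes tested and 0 called. Arrb2, an arrestin, was at 211, 209 and 209 CPM in wild type mice 1 to 3 and at 239, 232 and 236 CPM in LAIR-1-deficient mice 1 to 3. Its groups did not overlap and its libraries were tight, and the log2 fold change was 0.17 with a 95% interval of -0.02 to 0.35 and an unadjusted p of 0.0713 in edgeR's test. Grk6 was at 456 ± 50.2 and 470 ± 35.2 CPM, Grk2 (listed as Adrbk1) at 254 ± 18.8 and 269 ± 10.4 CPM, and Arrb1 at 12.7 ± 1.28 and 11.1 ± 2.83 CPM.

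The 3 regulators of S1pr1 were all tested and 0 called. Klf2, a transcription factor that activates S1pr1, was at 1498, 1138 and 1103 CPM in wild type mice 1 to 3 and at 1956, 1019 and 1048 CPM in LAIR-1-deficient mice 1 to 3, high in mouse 1 of each genotype. Cd69, whose protein binds S1PR1 and takes it off the cell surface, was at 907, 191 and 232 CPM in wild type mice 1 to 3 and at 973, 169 and 210 CPM in LAIR-1-deficient mice 1 to 3. S1pr1 RNA in the same libraries ranged over 545 to 623 CPM, with mouse 1 lowest in the wild type group and highest in the LAIR-1-deficient group. Foxo1 was at 350 ± 25.3 and 334 ± 5.27 CPM. The sign of the estimate for Klf2 and Cd69 depended on mouse 1, with log2 fold changes of 0.11 and 0.02 with all libraries and -0.12 and -0.16 without mouse 1 of both genotypes.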

How the data were processed

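RNA of sorted naive CD8 T cells was measured in 6 libraries, 3 per genotype. The authors deposited 1 table of raw counts, whole numbers with a row per gene and a column per library, per the file headers. BWA (version not stated) and the build mm10 are named in the submitters' processing notes. Annotation, counting tool, strand setting and molecular identifiers were not given in the sources used. Columns were matched to samples by description and groups taken from titles. The 4 spike-in rows, with 0 to 4 counts per library, were left out. Coordinates are from GENCODE vM21 (GRCm38), and promoters from RefSeq.

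The test was run in edgeR 4.0.16 (R 4.3.3), with filterByExpr at a smallest count of 10, TMM scaling and the robust two-sided quasi-likelihood F test, adjusted by Benjamini-Hochberg over 9565 genes with a threshold of 0.05. The SE is the log2 fold change divided by the square root of F. A chi-square between libraries gave 4.99 to 23.4 per gene where sampling noise gives about 1, so all 6 were kept as separate mice. Centred log2 CPM used a prior count of 2. Nothing says more of the mice's origin, so p-values measure only the spread between these samples, and counting error covers counts only. Scripts were tested on simulated data.

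The 8 genes and the lists were chosen with earlier results of these data known. The text names the 8 genes, Lair1, from each role list the 2 tested genes lowest in unadjusted p and the 2 highest in mean CPM, the 2 genes most like each of the 8, and markers of other cell types. Cd8b1 and Beta-s follow that rule, and Ncr1 was chosen after its value was seen. 1 of the 9 role lists is counted in the totals and not reported here on its own. In the role lists, 5 genes were matched by an older symbol. Alternatives were RLE factors, library totals, no filter, a smallest count of 30, DESeq2 1.42.0, limma-voom (limma 3.58.1), mouse number as a block, and leaving out libraries.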

Additional observations from a re-analysis of the deposited data

How the results depend on the processing

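Under each alternative run, the number called was 0 of the 8 genes and 0 of the pathway genes in the fit. The fits held all 77 pathway genes, with 3 exceptions. There were 66 with a smallest count of 30, 76 without wild type mouse 2 and 76 without mouse 1 of both genotypes. The count of genes called over the whole table was 1 (Lair1) and became 3 without a filter. It was 0 with a smallest count of 30, a filter that Lair1 did not pass, so Lair1 could not be called there. The count was also 0 with limma-voom and 0 without mouse 1 of both genotypes, and 0 to 2 when 1 library was left out. Without mouse 1 of both genotypes the log2 fold change was -0.0001 for Ccr7, 0.0105 for Ccr9, -0.0286 for Cxcr4, -0.0524 for S1pr1, 0.0105 for Sphk2, -0.12 for Klf2 and -0.16 for Cd69. Cd69 was at -0.0557 with limma-voom. The cause of these sign changes was not tested. Gpr183 (-0.0003) and Gnas (-0.0052) lay near 0, and their sign changed under some scalings of the libraries. Gpr183 was at 0.0017 with RLE factors and 0.0029 with library totals, and Gnas at 0.0033 with library totals. The median of all genes was 0.0006 with TMM, 0.0016 with RLE factors and 0.01 with library totals. Leaving out 1 library gave ranges of -0.17 to 0.19 for Ccr7, -0.17 to 0.12 for Ccr9, -0.19 to 0.28 for Cxcr4, -0.0283 to 0.0553 for S1pr1, -0.0014 to 0.13 for Gnai2 and -0.76 to 0.13 for Rgs1. They were -0.10 to 0.71 for Cxcr2, -0.23 to 0.0412 for Cxcr3, -1.26 to 0.35 for Ccl4, -0.0638 to 1.21 for S1pr2, -0.57 to 0.45 for Gpr183, -0.18 to 0.0062 for Sgpp1, -0.0421 to 0.10 for Gna13, -0.0694 to 0.0426 for Gnas, -0.0158 to 0.14 for Grk6, -0.27 to 0.27 for Klf2 and -1.23 to 1.09 for Cd69. S1pr4 and Arhgef1 kept their sign in each of these fits.

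Mouse number was not used as a pairing in the main test. Deviations of same-numbered libraries from their group means correlated at 0.29, 0.01 and 0.07 across genes for mice 1 to 3. Only mouse 1 correlated best with its own number. Whether same-numbered mice shared a day or batch was not tested. With mouse number as a replicate block, 1 gene was called, none of the 8, and Cd69 was at -0.0709. The 8 genes had 61 or more counts in every library, and counting error was largest for Rgs1 (up to 12.8% of a value).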
